A study of Mus musculus with 21 samples.

Results

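The genes described here are imprinted genes read in mouse embryonic stem cells (ESCs) that were kept undifferentiated, left without self-renewal factors, or treated with retinoic acid (RA). They are H19, Igf2, Ascl2, Kcnq1ot1, Cdkn1c and Phlda2 on distal chromosome 7, and Igf2r on chromosome 17, which was added because its product takes up IGF2. They were chosen by name, with earlier results of these data known, and each has a row in all 21 expression tables. They are 7 of 32285 genes listed in the time course and of 25239 genes listed in the Cyp26a1 set. Because the choice was made with their values known, the levels are a description and no p-value is given for a single one of the 7 genes.

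An imprinted gene is read mainly from the copy inherited from one parent. In the H19 and Igf2 domain a control region between the genes is methylated on the paternal copy, and H19 is then read from the maternal copy and Igf2 from the paternal copy through shared enhancers. In the neighbouring domain the long noncoding RNA Kcnq1ot1 is read from the paternal copy and silences Cdkn1c, Phlda2, Ascl2 and other genes beside it, so these are read from the maternal copy. Igf2r is read from the maternal copy in most mouse tissues, and its receptor carries IGF2 to the lysosome, where it is broken down. The values below are totals over both parental copies, which were not told apart.

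Polyadenylated RNA was sequenced in 7 groups of 3 libraries. For the time course, the 0 h cells (ESC_0h) were wild type ESCs on gelatin, in serum medium holding LIF, PD0325901 and CHIR99021, a pair of inhibitors known as 2i. Wild type cells from which LIF and 2i were withdrawn form noRA_12h and noRA_24h, and those given 2 µM RA form RA_12h and RA_24h, each named by its hours. Whether the RA cells of the time course also lost LIF and 2i is not stated in the labels. If they did not, RA and the presence of LIF and 2i cannot be told apart when RA and noRA groups are compared. Below, an RA difference or RA effect names only the difference between those groups. In the Cyp26a1 set, wild type and Cyp26a1 knockout ESCs both lost LIF and 2i and received 2 µM RA for 24 h (WT_RA24h and KO_RA24h). Cyp26a1 is an enzyme that breaks down RA. Neither a knockout clone nor a named ESC line is given in the labels, and replicates are not said to be separate cultures. Every p-value therefore sets a group difference against the spread of these samples, which may be only technical.

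Levels are in TPM, a length-scaled share of a library's transcripts, and the sets are never compared with each other. Time course libraries held 2.955 to 3.903 aligned gigabases, and Cyp26a1 set libraries 2.718 to 3.237. The knocked-out gene followed the labels, with Cyp26a1 at 585, 606 and 592 TPM in the WT_RA24h libraries and at 4.62, 4.03 and 4.93 TPM in the KO_RA24h libraries. On the main axis of differences within groups, RA_24h replicate 2, noRA_12h replicates 1 and 2, and KO_RA24h replicate 3 stood farthest from their groups, and results that turn on one of them are given with and without it. The 6 ESC markers summed to between 6043 and 9199 TPM in every library, and the 7 fibroblast markers to at most 16.6 TPM. Such a sum does not show how single markers moved, and the ESC markers went both ways with RA, as given below. In such bulk samples fewer cells of a type and less RNA per cell cannot be told apart.

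All 6 members on chromosome 7 lie on the minus strand of mm10 within 927.6 kb. H19, a spliced noncoding RNA, spans chr7:142575529-142578143, and Igf2 spans chr7:142650766-142666816, 72.62 kb away. Ascl2 (chr7:142966829-142969264) lies 300 kb beyond Igf2. Kcnq1ot1 (chr7:143203458-143296549) is a single unspliced exon of 93092 bases inside Kcnq1 and antisense to it. Cdkn1c (chr7:143458339-143461050) and Phlda2 (chr7:143501545-143503150) are separated by 40.49 kb. Igf2r spans chr17:12682406-12769664, and the noncoding RNA Airn runs antisense across its 5′ part without sharing an exon. Strand is not stated for these libraries. Igf2 shares 62.8% of its exonic bases with the predicted gene Gm49394 on the same strand. Cdkn1c shares 30.6% of its own with the predicted antisense gene Gm44732. The levels of both are uncertain by what those models take where they were used. Genes carry Ensembl identifiers in the time course and symbols in the Cyp26a1 set, and the lists differ. Gm44732 is listed only in the time course, and Gm49394 in neither set.

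The H19 transcript is also the precursor of miR-675, whose hairpin lies in an H19 exon at chr7:142577064-142577147. Its mature products are shown because this hairpin is the small RNA that H19 is known to give rise to. They are from RefSeq (GRCm38.p6), with the seed, bases 2 to 8, in capitals. Each seed occurs in 1 of 1738 listed mature mouse miRNAs, so the 2 products share a seed neither with each other nor with another entry. Mature miRNAs were not measured here.
mmu-miR-675-5p: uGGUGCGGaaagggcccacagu
mmu-miR-675-3p: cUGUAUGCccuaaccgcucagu

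RA acts through receptors that bind pairs of a short hexamer, so the RefSeq promoter windows of the members were searched for the hexamer AGGTCA, then the form AGTTCA, the form GGGTCA and the form GGTTCA, on both strands. Windows covered the 250 bases before a listed RefSeq start, and 5 of the 7 genes had at least 1. H19 and Cdkn1c had none. A listed start can lie inside the gene span given above. The Phlda2 window lies inside the Phlda2 span and overlaps a Phlda2 exon, and some Igf2 windows lie inside Igf2. The farthest upstream start of Igf2, which RA_24h cells expressed above the other time course groups, and the start of Igf2r, whose RA difference at 24 h was not called, each held 2 hexamers, printed in capitals. The most downstream start of Igf2 held none and is shown for comparison. Windows are on the minus strand, 5′ to 3′, and end at the base before the listed start. The downstream start lies inside the Igf2 span.
Igf2, upstream start, chr7:142666817-142667066: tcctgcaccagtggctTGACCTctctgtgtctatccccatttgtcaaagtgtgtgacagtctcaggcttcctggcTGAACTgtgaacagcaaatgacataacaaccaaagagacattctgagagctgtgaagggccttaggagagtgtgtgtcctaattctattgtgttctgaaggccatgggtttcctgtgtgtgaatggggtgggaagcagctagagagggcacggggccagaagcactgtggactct
Igf2, downstream start, chr7:142657497-142657746: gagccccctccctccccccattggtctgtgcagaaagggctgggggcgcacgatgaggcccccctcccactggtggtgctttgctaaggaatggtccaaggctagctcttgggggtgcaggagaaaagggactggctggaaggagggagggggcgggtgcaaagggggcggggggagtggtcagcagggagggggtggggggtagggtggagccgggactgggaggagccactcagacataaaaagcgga
Igf2r, chr17:12769707-12769956: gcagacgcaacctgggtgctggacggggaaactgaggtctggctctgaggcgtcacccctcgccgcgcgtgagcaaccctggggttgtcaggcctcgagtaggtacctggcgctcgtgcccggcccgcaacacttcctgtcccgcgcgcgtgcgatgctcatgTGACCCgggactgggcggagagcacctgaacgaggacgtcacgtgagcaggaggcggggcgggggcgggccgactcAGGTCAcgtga
The hexamers begin 234 and 175 bases before the upstream start of Igf2, and 87 and 11 bases before the start of Igf2r. No hexamer was found in the windows of Ascl2, Kcnq1ot1 or Phlda2, and no member window held a pair spaced by 1, 2 or 5 bases. Of all 32851 windows, 38.6% held a hexamer and 0.0883% a pair spaced by 5 bases, so a single hexamer is common and its presence is only a description. The windows also differed in CpG content, with 27 CpG pairs for Igf2r, 21 for Phlda2, 19 for Ascl2 and 5 for Kcnq1ot1. The 4 listed starts of Igf2 had 1, 10, 22 and 6, from the most upstream to the most downstream, against a median of 6 over all windows.

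In all, 6 comparisons were made with limma on log2(TPM + 1). A gene entered when 3 or more libraries of a set had it at 1 TPM or above, and it was called at a Benjamini-Hochberg adjusted p below 0.05 over all genes tested. Differences below are on this log2(TPM + 1) scale with their standard error (SE), and they understate the change of low genes. Of the 7 genes, 6 were tested in each set, since Kcnq1ot1 was too low. In the time course Igf2 reached 1 TPM only in RA_24h, so it entered only through the group where it is high. Its calls with RA at 24 h and for the change of the RA effect are therefore a description and no support. With RA for 24 h against 24 h without it, 4 of the 6 tested members were higher and 2 were not called, where 22.8% of all tested genes were called higher and 12.5% lower (35.2% in all). With RA for 12 h, H19 was higher and Ascl2 lower, where 10.2% of genes were higher and 7.19% lower (17.4% in all). The RA effect was larger at 24 h than at 12 h for H19, Igf2 and Phlda2, where the effect rose for 4.17% of genes and fell for 2.68% (6.85% in all). After 12 h without LIF and 2i, 2 members were higher and 3 lower than in ESC_0h, where 22% of genes were higher and 20.4% lower (42.5% in all). After 24 h without them, 3 were higher and 1 lower, where 25.4% were higher and 26.5% lower (51.9% in all). In the knockout, 2 members were lower and 4 were not called, where 3.34% of genes were higher and 6.65% lower (9.99% in all). Without RA_24h replicate 2 the RA differences at 24 h were 3.27 for H19, 1.30 for Igf2, 0.97 for Cdkn1c and 0.81 for Phlda2, all still called. Without noRA_12h replicate 1 or 2 the RA differences at 12 h were 0.75 and 0.80 for H19 and -0.94 and -0.67 for Ascl2, also still called. Since the members were picked with these results known, nothing is read from how these counts compare with the shares.

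**Figure D1:**
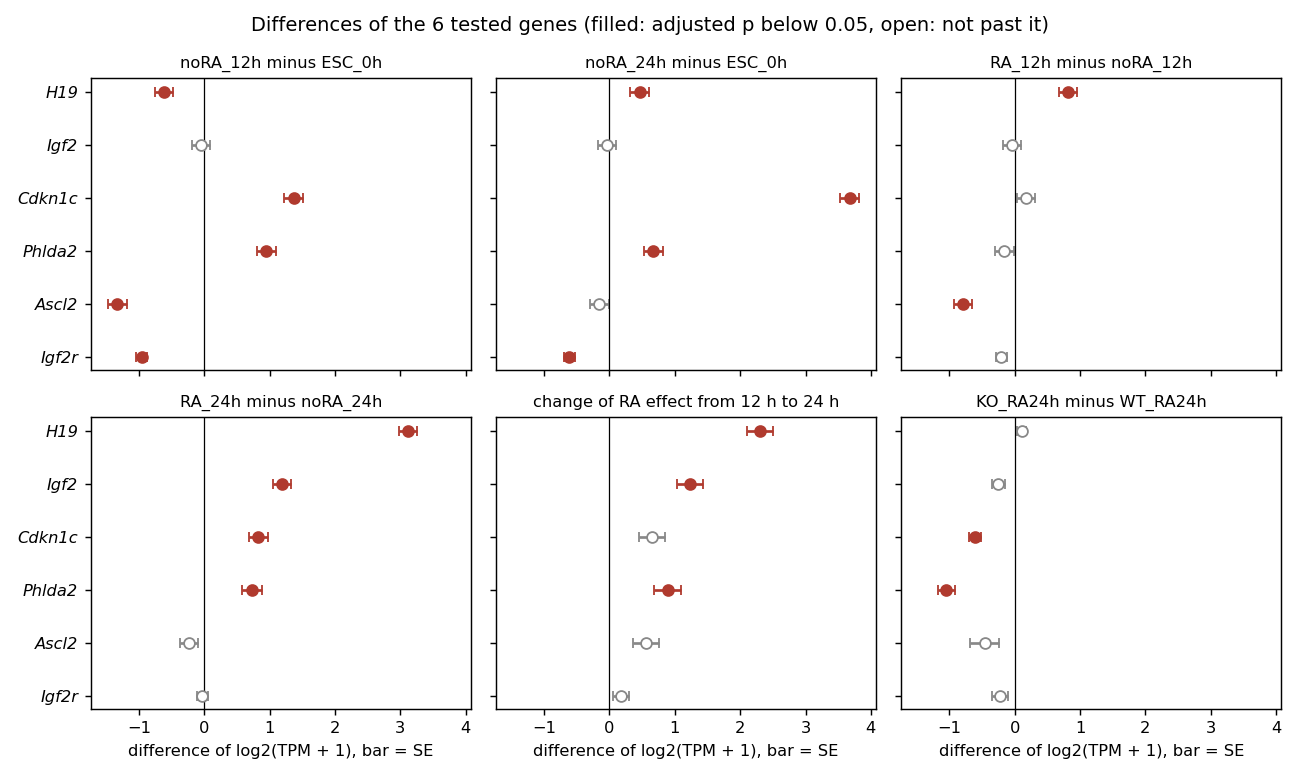
Differences of the 6 tested genes in the 6 comparisons, on the log2(TPM + 1) scale, with SE bars, and filled points where the adjusted p was below 0.05. H19 reaches 3.12 with RA at 24 h and Cdkn1c reaches 3.67 at 24 h without RA, while Phlda2 is lowest in the knockout at -1.05.

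H19 was low until 24 h of RA. It stood at 15.2, 14.3 and 14.5 TPM in the ESC_0h libraries, at 8.26, 8.90 and 10.6 in noRA_12h and at 19.5, 14.6 and 17.2 in RA_12h. It stood at 21.1, 20.8 and 19.8 TPM in noRA_24h and at 186, 151 and 229 in RA_24h. Every RA_24h library was above every other library of the time course, and RA_12h overlapped ESC_0h. The means were 188 ± 39.1 TPM in RA_24h and 20.5 ± 0.673 TPM in noRA_24h (SD, n = 3), a 9.17-fold ratio and a difference of 3.12 (SE 0.14). In rank among all genes of a library, H19 moved from place 6401 to 6883 in ESC_0h to place 786 to 1191 in RA_24h. At 12 h the RA difference was 0.82 (SE 0.14), from 9.24 ± 1.20 to 17.1 ± 2.46 TPM. Without RA the level dipped and recovered, being lower than ESC_0h at 12 h (-0.62, SE 0.14) and higher at 24 h (0.46, SE 0.14).

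Igf2, the fetal growth factor that shares enhancers with H19, was near the lower limit of these libraries. Its values were 0.580, 0.690 and 0.389 TPM in ESC_0h, 0.715, 0.467 and 0.334 in noRA_12h, 0.346, 0.554 and 0.486 in RA_12h, and 0.499, 0.377 and 0.646 in noRA_24h. In RA_24h they were 2.70, 1.95 and 2.71 TPM. The first 4 groups overlapped one another, and all RA_24h libraries lay above them. The mean was 2.45 ± 0.436 TPM in RA_24h and 0.508 ± 0.135 TPM in noRA_24h (SD, n = 3), a 4.84-fold ratio and a difference of 1.19 (SE 0.14). The size depended on the scale, at 2.08 with a pseudocount of 0.1 in place of 1 and at 0.79 with the deposited FPKM values in place of TPM. The call held in both, but Igf2 passed the filter on low values only through RA_24h. The deposited coverage of Igf2, the mean read depth per base, was at least 0.237 and at most 1.76 over the 15 libraries, so its level rests on few reads. Differences from ESC_0h without RA were -0.05 at 12 h and -0.04 at 24 h (SE 0.14 each), and neither was called.

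H19 exceeded Igf2 in every library, and within the time course by the most in RA_24h. The ratio of H19 to Igf2 in TPM had a median of 26.2 (20.7 to 37.2) in ESC_0h and 42.2 (30.6 to 55.1) in noRA_24h. At 12 h it was 19.04 (11.6 to 31.7) without RA and 35.4 (26.2 to 56.2) with RA, and these groups overlapped. In RA_24h it was 77.3 (68.7 to 84.4), above every other time course library. The ratio was not tested, and its lower values rest on Igf2 levels below 1 TPM.

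**Figure D2:**
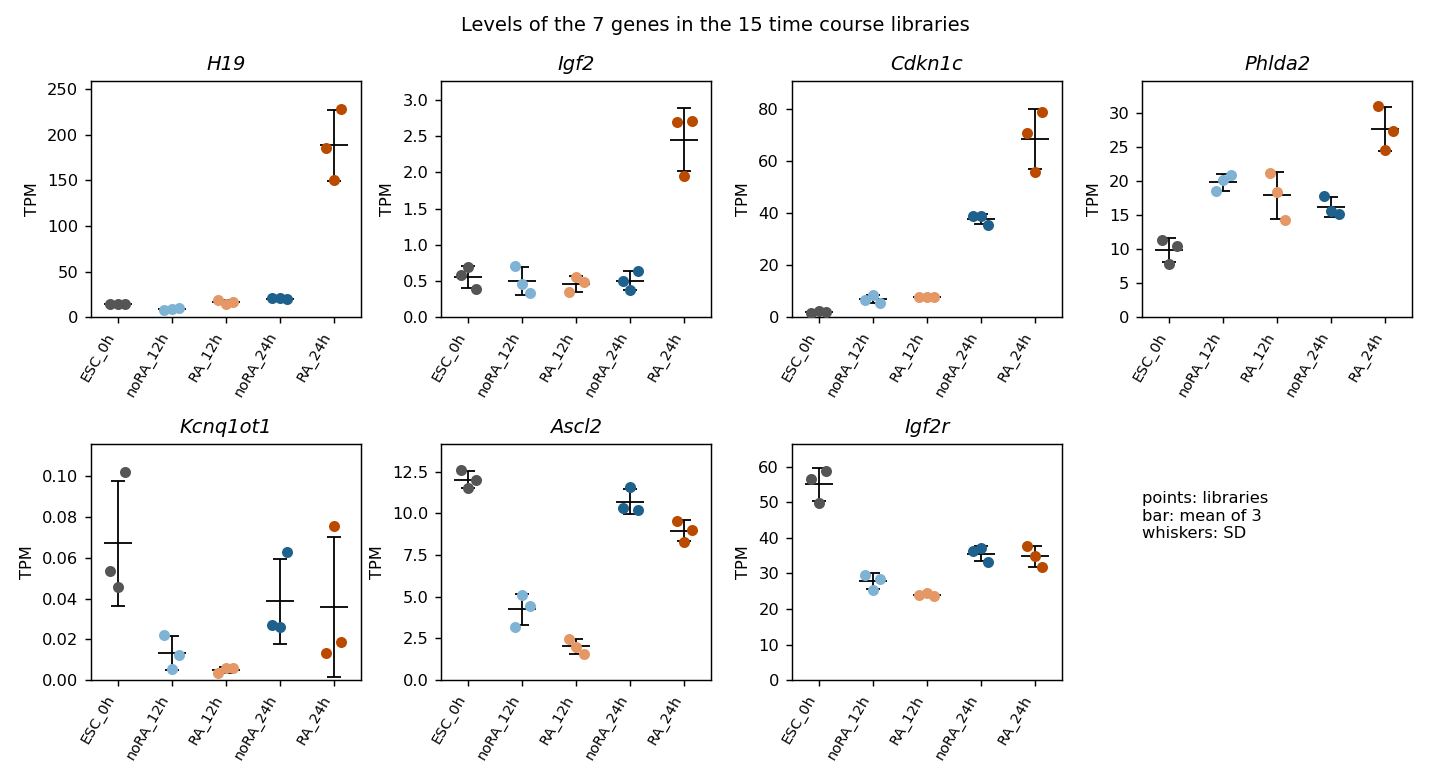
TPM of the 7 genes in the 15 time course libraries by group, with points for libraries, a bar for the mean of 3 and whiskers for the SD. H19 and Igf2 are high only in RA_24h (188 and 2.45 TPM on average), Cdkn1c is also high in noRA_24h, and Igf2r is highest in ESC_0h.

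Cdkn1c, which encodes the cyclin-dependent kinase inhibitor p57Kip2, was higher than in ESC_0h at both times without RA, and higher again with RA at 24 h. It stood at 1.78, 2.27 and 2.08 TPM in ESC_0h, at 6.80, 8.51 and 5.47 in noRA_12h and at 7.81, 7.90 and 7.80 in RA_12h. It stood at 38.7, 39.0 and 35.6 TPM in noRA_24h and at 70.9, 56.0 and 78.7 in RA_24h. The 12 h groups overlapped each other, and both 24 h groups were above all earlier libraries. Against ESC_0h the difference was 1.37 (SE 0.14) at 12 h and 3.67 (SE 0.14) at 24 h without RA, the latter from 2.04 ± 0.250 to 37.8 ± 1.88 TPM (SD, n = 3). With RA at 24 h Cdkn1c was higher by 0.83 (SE 0.14), at 68.5 ± 11.5 TPM. The RA difference of 0.18 (SE 0.14) at 12 h was not called. Set against ESC_0h, the mean of Cdkn1c was 18.5-fold without and 33.5-fold with RA at 24 h, where that of H19 was 1.40-fold and 12.9-fold. The change of its RA effect from 12 h to 24 h was 0.65 (SE 0.20) and not called, but it was called at 0.79 when either noRA_12h replicate 3 or RA_24h replicate 2 was left out. The predicted antisense gene Gm44732, named after its values were seen, has 98.4% of its exonic bases inside Cdkn1c exons, and its mean went from 0.132 TPM in ESC_0h to 4.59 in noRA_24h and 8.77 in RA_24h.

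Phlda2 encodes a small pleckstrin-homology protein that limits growth of the placenta. Its values were 11.3, 7.91 and 10.5 TPM in ESC_0h, 18.5, 20.2 and 20.9 in noRA_12h, 21.2, 18.4 and 14.2 in RA_12h, 17.8, 15.7 and 15.1 in noRA_24h and 31.0, 24.6 and 27.4 in RA_24h. ESC_0h was below and RA_24h above every other library, and the 3 groups between them overlapped along their order. Phlda2 was higher than in ESC_0h after 12 h (0.95, SE 0.15) and 24 h (0.67, SE 0.15) without RA. At 24 h it was at 16.2 ± 1.42 TPM without RA and 27.7 ± 3.22 TPM with RA (SD, n = 3). This was a 1.71-fold ratio and a difference of 0.73 (SE 0.15). At 12 h the RA difference was -0.16 (SE 0.15) and not called. The RA effect was larger at 24 h by 0.89 (SE 0.21). That call was lost, with differences of 0.74 to 0.87, without noRA_12h replicate 3, RA_12h replicate 3, noRA_24h replicate 2, noRA_24h replicate 3 or RA_24h replicate 1.

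Ascl2, a basic helix-loop-helix transcription factor needed for the spongiotrophoblast of the placenta, had its low point at 12 h. It stood at 12.6, 11.5 and 12.0 TPM in ESC_0h, at 3.21, 5.08 and 4.43 in noRA_12h and at 2.47, 2.01 and 1.57 in RA_12h. At 24 h it was back at 10.3, 11.6 and 10.2 TPM in noRA_24h and 9.56, 8.30 and 9.0 in RA_24h. The 12 h libraries lay below all others, and RA_12h lay below noRA_12h. Against ESC_0h it was lower at 12 h without RA by 1.33 on the log2 scale (-1.33, SE 0.14), from 12.0 ± 0.525 to 4.24 ± 0.948 TPM. With RA it was lower still at 12 h (-0.79, SE 0.14), at 2.02 ± 0.452 TPM (SD, n = 3). At 24 h neither the difference from ESC_0h (-0.16, SE 0.14) nor the RA difference (-0.23, SE 0.14) was called, although the noRA_24h and RA_24h libraries did not overlap. The change of its RA effect, 0.56 (SE 0.20), was called only without noRA_12h replicate 1, at 0.71.

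Kcnq1ot1 was close to 0 in all libraries. It stood at 0.0535, 0.0457 and 0.102 TPM in ESC_0h, and its time course values ran from 0.00347 to 0.102 TPM. All neighbours in the order of group means overlapped, although the ESC_0h libraries lay above all noRA_12h (0.00537 to 0.0220 TPM) and RA_12h libraries (0.00347 to 0.00596 TPM). Its coverage was at most 0.146 reads per base, it did not pass the filter on low values, and these differences were not tested. Kcnq1, the gene it lies inside, was also at most 0.0857 TPM in the time course.

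Igf2r, the receptor that removes IGF2, was the most abundant of the 7 genes in 3 of the 5 time course groups and was highest in ESC_0h. It stood at 56.6, 49.7 and 58.7 TPM in ESC_0h, at 29.7, 25.4 and 28.4 in noRA_12h and at 23.9, 24.4 and 23.7 in RA_12h. At 24 h it stood at 36.2, 37.1 and 33.2 TPM in noRA_24h and at 37.7, 34.9 and 31.9 in RA_24h. All ESC_0h libraries were above all others, and the 24 h groups overlapped. The differences from ESC_0h without RA were -0.96 (SE 0.09) at 12 h and -0.62 (SE 0.09) at 24 h, from 55.0 ± 4.69 to 27.8 ± 2.19 and 35.5 ± 2.05 TPM (SD, n = 3). With RA the differences were -0.20 (SE 0.09) at 12 h and -0.03 (SE 0.09) at 24 h, and neither was called. Airn, the antisense RNA read from the paternal copy of this locus, was at most 0.287 TPM in the time course. Of 10 listed neighbours of Igf2r on chromosome 17, 4 were tested, and with RA at 24 h their differences ran from -0.26 to 0.10.

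The members did not move as 1 group. Across the 15 time course libraries, which share treatments and times, Pearson r of log2(TPM + 1) was 0.93 between H19 and Igf2 and 0.84 between Ascl2 and Igf2r, which lie on different chromosomes. It was 0.76 between Cdkn1c and H19, 0.72 between Cdkn1c and Phlda2, 0.07 between H19 and Igf2r, and -0.56 between Igf2r and Phlda2. The 3 genes most like each member over the same libraries lay mostly on other chromosomes. They were H1f0, Cpn1 and Sp8 for H19 (r of 0.984 to 0.986), Foxq1, Pgam2 and Tcf23 for Igf2 (0.962 to 0.966), and Eno3, Bcl6b and Gng3 for Cdkn1c (0.985 to 0.994). They were Nrg2, Tnnt3 and Tafa5 for Phlda2 (0.941 to 0.951), Krt19, Mt1 and Ndrg1 for Ascl2 (0.967 to 0.979), and Abcc1, Spg11 and Mylip for Igf2r (0.981 to 0.985). Tnnt3, which encodes a troponin of fast muscle, is itself on distal chromosome 7, and the others named are on other chromosomes. These correlations are descriptions over 5 groups and carry no test.

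Markers of endoderm, a tissue in which H19 and Igf2 are known to be abundant, moved with RA at 24 h. The summed level of 11 endoderm markers was 208 to 244 TPM in RA_24h and 42.6 to 49.6 TPM in noRA_24h. Of the 11, 8 were tested and all 8 were higher, with a median difference of 2.97 where the median over all genes was 0.02. Ttr was at 0 in 4 of the 5 time course groups. A mean of at least 1 TPM was reached by 8 of the 11 in RA_24h. It was reached by 3 in ESC_0h, 2 in noRA_12h, 4 in RA_12h and 3 in noRA_24h. Some of the 8 could therefore have passed the filter only through RA_24h, and their calls at 24 h are a description and no support. Gata6 and Gata4, transcription factors of primitive endoderm, were higher by 4.86 (SE 0.14, adjusted p = 3.7e-11, limma) and 3.69 (SE 0.16, adjusted p = 1.34e-09, limma). At 12 h of RA, when the H19 difference was 0.82, 3 of the 8 tested endoderm markers were higher, with a median difference of 0.35 where the median over all genes was -0.01. Those were Gata6 by 3.36 (SE 0.14, adjusted p = 4.95e-09, limma), Sox7 by 0.71 (SE 0.12, adjusted p = 0.00101, limma) and Dab2 by 0.38 (SE 0.12, adjusted p = 0.0428, limma), while Gata4 (0.46, SE 0.16), Sox17 (0.32, SE 0.26) and Lama1 (0.10, SE 0.10) were among the 5 not called. Markers of trophoblast, a tissue in which Phlda2 and Ascl2 act, summed to 102 to 130 TPM in RA_24h and 58.4 to 60.5 TPM in noRA_24h. Of 11 trophoblast markers, 8 were tested and 7 were higher, while the later placental markers Tpbpa and Prl3d1 were at 0 in every group. Of the 6 ESC markers, 2 were higher and 4 lower with RA at 24 h, with a median difference of -0.34. Over all tested genes 22.8% were higher and 12.5% lower with RA at 24 h, and 10.2% were higher at 12 h. The part of such cells in the levels of the 7 genes was not tested.

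**Figure D3:**
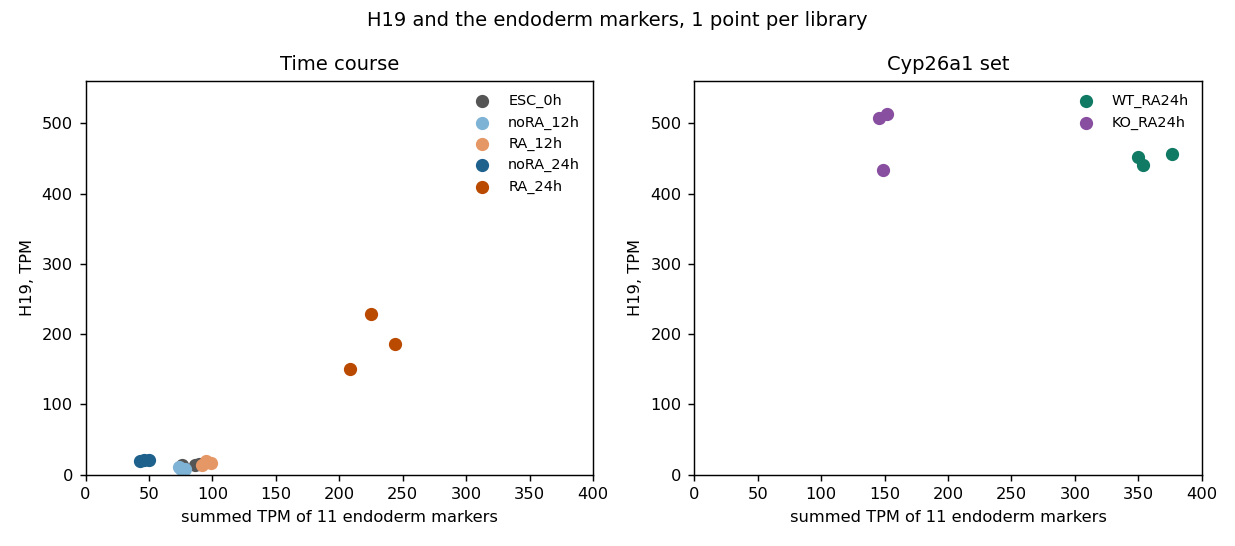
H19 in TPM against the summed TPM of 11 endoderm markers, 1 point per library, for the time course and the Cyp26a1 set. In the time course both are high in RA_24h, and in the Cyp26a1 set the KO_RA24h libraries have lower marker sums (146 to 152 TPM) than WT_RA24h (349 to 376 TPM) at H19 levels that overlap.

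The Cyp26a1 set compares knockout with wild type cells, both given RA for 24 h. It holds no untreated cells of either genotype. A changed response to RA and a difference present before RA therefore cannot be told apart. Phlda2 and Cdkn1c were lower in the knockout, and H19, Igf2, Ascl2 and Igf2r were not called. Phlda2 stood at 15.0, 17.9 and 15.7 TPM in WT_RA24h and at 6.75, 6.65 and 8.69 TPM in KO_RA24h, with no overlap. The difference was -1.05 (SE 0.13), from 16.2 ± 1.49 to 7.36 ± 1.15 TPM (SD, n = 3), and the wild type mean was 2.20 times the knockout mean. Cdkn1c stood at 34.9, 32.3 and 32.4 TPM in WT_RA24h and at 23.2, 21.8 and 19.5 TPM in KO_RA24h, again with no overlap. The difference was -0.61 (SE 0.09), from 33.2 ± 1.45 to 21.5 ± 1.89 TPM, and the wild type mean was 1.54 times the knockout mean. The Cdkn1c call was lost when any one WT_RA24h library was left out, at -0.57, -0.63 and -0.62 without replicates 1, 2 and 3. Without KO_RA24h replicate 3 the differences were -1.16 for Phlda2 and -0.54 for Cdkn1c, and both were called.

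H19 was high in both genotypes. It stood at 456, 452 and 440 TPM in WT_RA24h and at 507, 514 and 434 TPM in KO_RA24h. The groups overlapped because KO_RA24h replicate 3, the library that stood apart, was the lowest of all 6. The difference was 0.11 (SE 0.07) and not called, and without that library it was 0.18 (SE 0.03) and called as higher. Igf2 stood at 2.82, 2.87 and 2.67 TPM in WT_RA24h and at 2.11, 2.20 and 2.27 TPM in KO_RA24h. Although these did not overlap, the difference of -0.25 (SE 0.10) was not called. The ratio of H19 to Igf2 ran from 157.5 to 165 in WT_RA24h and from 191.5 to 241 in KO_RA24h.

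Of the remaining members, Igf2r stood at 21.9, 18.9 and 19.6 TPM in WT_RA24h and at 14.6, 18.5 and 18.5 TPM in KO_RA24h, a difference of -0.22 (SE 0.12). Ascl2 stood at 3.33, 2.87 and 3.89 TPM in WT_RA24h and at 2.93, 2.52 and 1.29 TPM in KO_RA24h, a difference of -0.46 (SE 0.22), or -0.22 without KO_RA24h replicate 3. The Ascl2 groups overlapped and the Igf2r groups did not, and neither gene was called. Kcnq1ot1 ran from 0.0639 to 0.292 TPM over the 6 libraries and was not tested.

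**Figure D4:**
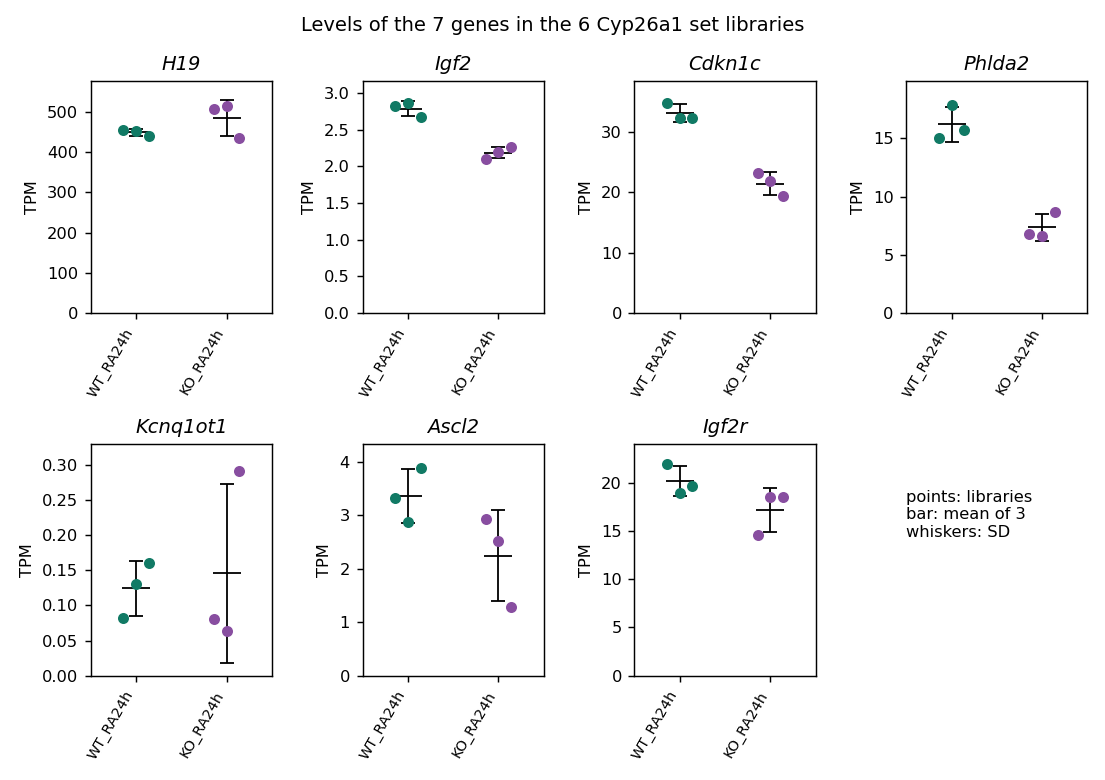
TPM of the 7 genes in the 6 libraries of the Cyp26a1 set, with points for libraries, a bar for the mean of 3 and whiskers for the SD. Phlda2 (16.2 against 7.36 TPM) and Cdkn1c (33.2 against 21.5 TPM) separate the genotypes, and H19 overlaps.

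The cell type markers also differed between the genotypes. All 8 tested endoderm markers were lower in the knockout, with a median difference of -1.28 where the median over all genes was -0.05, and Ttr was at 0 in both groups. All 6 ESC markers were higher, with a median of 0.62, among them Nanog by 1.32 (SE 0.04, adjusted p = 0.00011, limma). Of 7 tested trophoblast markers, Krt7 was higher and Krt18 lower, and the list summed to 153 to 163 TPM in WT_RA24h and 121 to 136 TPM in KO_RA24h. Over all tested genes 3.34% were higher and 6.65% lower in the knockout. Among the members, Phlda2 and Cdkn1c were called lower. The differences of Igf2 (-0.25), Ascl2 (-0.46) and Igf2r (-0.22) were also negative but not called. The H19 difference was 0.11 and not called. The part of these markers' cells in the differences of the 7 genes was not tested.

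The genes around the members on chromosome 7 were called with RA at 24 h about as often as genes in general. Between 500 kb before H19 and 500 kb after Phlda2 (chr7:142075529-144003150), the time course tables list 57 other genes, of which 19 were tested. With RA at 24 h, 6 of them were higher and 1 lower, where 22.8% of all tested genes were higher and 12.5% lower. Their median difference was 0.13 against 0.02 over all genes. Among the 6 is Gm44732, which has 98.4% of its exonic bases inside Cdkn1c exons, so it may not be separate from that member. Tnnt3, on the side of H19 away from Igf2, was higher by 1.26 (SE 0.17, adjusted p = 8.62e-05, limma), at 1.15, 1.26 and 0.891 TPM in noRA_24h and 4.67, 4.11 and 3.34 TPM in RA_24h. The ESC_0h libraries list it at 0. Lsp1, Osbpl5 and Slc22a18 were called at 0.70 (SE 0.23), 0.62 (SE 0.17) and -0.62 (SE 0.19), with means under 2 TPM in both groups. Outside RA_24h, Lsp1 and Osbpl5 reached 1 TPM in too few libraries to pass the filter, so both entered only through RA_24h. Their calls, also within the count of 6, are a description and no support. Slc22a18, a transporter of the Kcnq1ot1 domain that lies between Cdkn1c and Phlda2, thus went the other way from both of its neighbours. Ins2, the next protein-coding gene beyond Igf2, was listed at 0 in all 21 libraries. In the knockout 13 of 47 listed neighbours were tested, and 1, Dhcr7, was lower (-0.27, SE 0.06, adjusted p = 0.0449, limma), where 6.65% of all tested genes were lower.

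**Figure D5:**
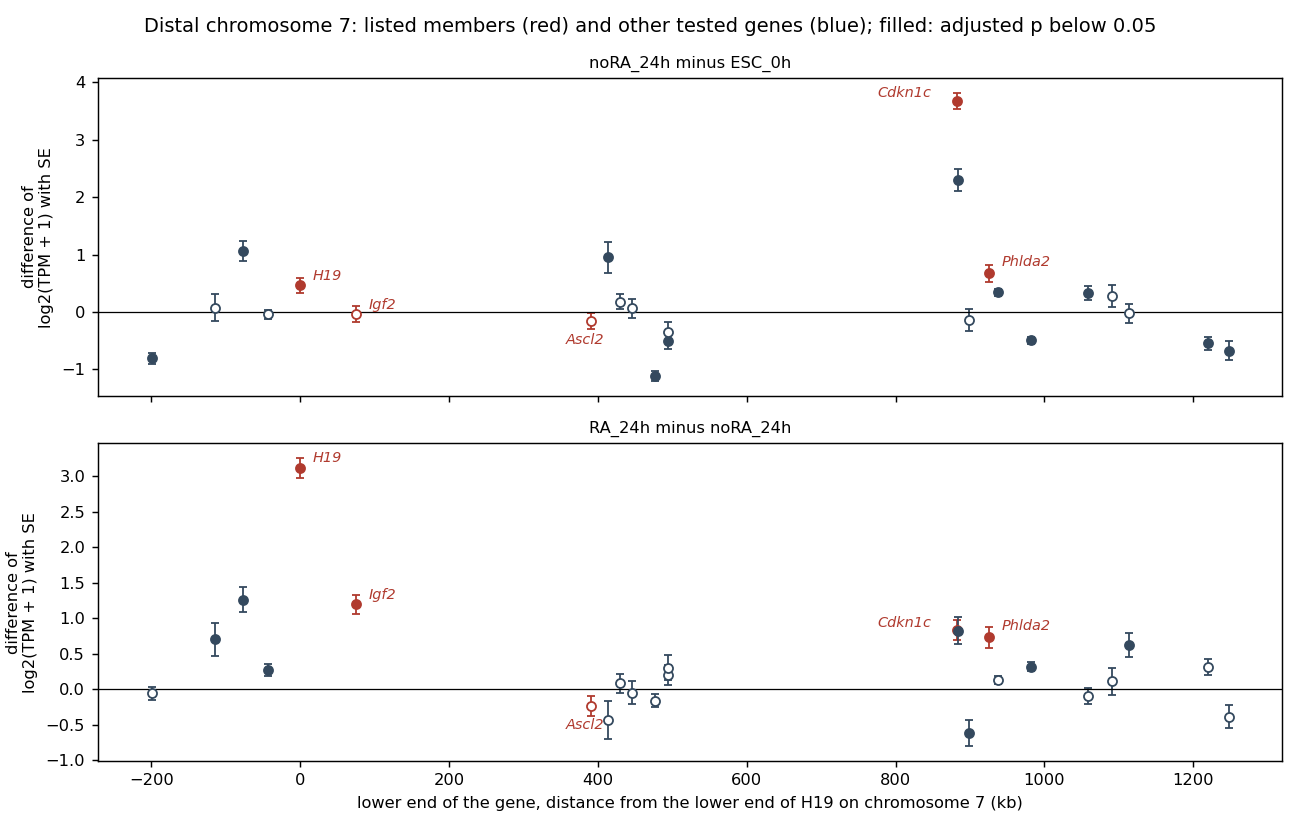
Differences on the log2(TPM + 1) scale, with SE, of the tested genes of distal chromosome 7 against their distance from the lower end of H19 in kb, for 24 h without RA against ESC_0h (top) and for RA against no RA at 24 h (bottom). Red points are members, blue points other genes, and filled points passed an adjusted p of 0.05. In the lower panel H19 (3.12), Tnnt3 (1.26) and Igf2 (1.19) stand highest, and in the upper panel Cdkn1c (3.67).

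The other genes of the IGF pathway showed no common direction. Of 18 listed, 12 were tested in the time course, and with RA at 24 h 2 were higher and 5 lower, with a median difference of -0.08. Over all tested genes 22.8% were higher and 12.5% lower. Igfbp3, which binds IGFs outside the cell, stood at 8.94, 7.11 and 7.69 TPM in noRA_24h and at 19.9, 18.5 and 18.5 TPM in RA_24h (1.17, SE 0.11, adjusted p = 3.83e-06, limma). Htra1, a secreted protease that cleaves IGF-binding proteins, was higher by 0.77 (SE 0.08, adjusted p = 1.2e-05, limma). Igfbp4, another binding protein, went down from 10.7 ± 0.612 to 4.34 ± 0.668 TPM (-1.13, SE 0.11, adjusted p = 3.34e-06, limma), and Igf2bp3, which binds Igf2 mRNA, from 49.1 ± 3.07 to 30.7 ± 8.03 TPM (-0.69, SE 0.17, adjusted p = 0.00696, limma). The signalling receptor Igf1r was at 4.18 ± 0.131 TPM in noRA_24h and 3.29 ± 0.438 TPM in RA_24h and was not called. Igf1 was at most 0.132 TPM in the time course, so Igf2, at 1.95 to 2.71 TPM in RA_24h, was the more abundant of these ligands there. In the knockout 1 of 11 tested genes of this list was higher, Htra1 (0.46, SE 0.09, adjusted p = 0.0251, limma), and 2 were lower, Igf2bp2 (-0.48, SE 0.06, adjusted p = 0.00601, limma) and Igfbp2 (-0.35, SE 0.07, adjusted p = 0.0228, limma). The shares over all tested genes were 3.34% higher and 6.65% lower.

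Of the 19 listed factors that maintain imprints, all were tested, and with RA at 24 h 2 were higher and 2 lower. Their median difference was -0.30, where the median over all genes was 0.02. Over all tested genes 22.8% were higher and 12.5% lower. Zfp57, a zinc finger protein that binds methylated imprint control regions, stood at 188 ± 9.72 TPM in ESC_0h, 248 ± 9.79 in noRA_24h and 221 ± 25.7 in RA_24h (SD, n = 3). In the knockout 1 of the 19 was higher and 2 were lower, where 3.34% of all tested genes were higher and 6.65% lower. The lower ones were Ehmt1 (-0.29, SE 0.06, adjusted p = 0.0383, limma) and Hnrnpu (-0.23, SE 0.05, adjusted p = 0.0289, limma). The higher one was Zfp57, at 285, 293 and 343 TPM against 195, 197 and 191 TPM in the wild type (0.65, SE 0.08, adjusted p = 0.00543, limma). Ctcf, which binds the unmethylated control region between H19 and Igf2, was at 101 ± 5.30 TPM in noRA_24h and 75.2 ± 24.0 TPM in RA_24h and was not called. Its germline relative Ctcfl was higher with RA at 24 h, at 6.05 ± 0.401 against 3.12 ± 0.187 TPM (0.78, SE 0.15, adjusted p = 0.00118, limma). Dppa3, which protects imprints in the early embryo, was lower, at 1.57 ± 0.246 against 3.95 ± 0.827 TPM (-0.93, SE 0.14, adjusted p = 0.000177, limma).

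Imprinted genes elsewhere in the genome also went both ways with RA. Of 18 listed, 16 were tested, and at 24 h 3 were higher and 4 lower, with a median difference of -0.12. Over all tested genes 22.8% were higher and 12.5% lower. Dlk1, a maternally silenced Notch-related ligand of chromosome 12, stood at 4.46, 1.60 and 2.04 TPM in noRA_24h and at 29.9, 23.7 and 19.6 TPM in RA_24h (2.84, SE 0.24, adjusted p = 1.23e-06, limma). Meg3, the noncoding RNA of the same domain, went from 48.9, 41.9 and 52.0 TPM to 9.61, 14.8 and 11.2 TPM (-1.93, SE 0.15, adjusted p = 3.41e-07, limma). In that domain the coding gene and the noncoding RNA thus moved in opposite directions, whereas H19 and Igf2 were both higher. In the knockout 4 of 15 tested genes of this list were lower and 11 were not called, where 6.65% of all tested genes were lower. The lower ones included Mest (-1.26, SE 0.05, adjusted p = 0.00019, limma) and Dlk1 (-0.92, SE 0.13, adjusted p = 0.00979, limma).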

How the data were processed

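The deposited gene tables, 1 per library, hold coverage, FPKM and TPM per the file headers. HISAT2, StringTie and the build mm10 are named in the submitters' processing notes, and for their versions and strand settings nothing is stated in the sources used here. The authors' coverage is a mean read depth per base (signal), their FPKM is scaled for length and library size, and their TPM is scaled to a common sum. TPM was used as deposited, coverage gave depth, and FPKM was an alternative. TPM holds no counts, so count tests were not run.

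The members and gene lists were chosen with earlier results of these data known. Groups came from sample titles. Each set had its own limma model, with 15 and 6 libraries (limma 3.58.1, R 4.3.3, lmFit, contrasts.fit, eBayes with trend), on log2(TPM + 1) of genes that reached 1 TPM in 3 or more libraries, with a threshold of 0.05; the scripts were checked on simulated data. Named beside the members were up to 4 called genes of largest change per list and comparison, and the 3 genes most correlated with each member; predicted genes were left out unless noted. Gene models were GENCODE M21 and sequences RefSeq GRCm38.p6. Python 3.11.15 with pandas 2.3.3 made the tables, and matplotlib 3.10.9 the figures.

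Libraries with the same replicate number deviated together in the Cyp26a1 set (r of 0.32, 0.19 and 0.54 for the 3 pairs), so by the rule used those numbers pair the samples, as a hint from the data and not from the labels. Alternatives were FPKM in place of TPM, median-of-ratios scaling, a pseudocount of 0.1, all genes without a filter, only genes with a mean of 5 TPM or more, eBayes without trend, the replicate block, each library left out, and models of only the groups compared.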

Additional observations from a re-analysis of the deposited data

Results flagged for a closer look

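The effect of RA differed between 12 h and 24 h for 3 of the 6 tested members, by a test of the difference itself in the time course model. For H19 the effect at 24 h exceeded that at 12 h by 2.30 (SE 0.20) on the log2(TPM + 1) scale, and all 3 RA_24h libraries lay above all others. For Igf2 it exceeded it by 1.23 (SE 0.20), from levels below 1 TPM at 12 h, and by 2.16 with a pseudocount of 0.1 and 0.80 with FPKM. Igf2 passed the filter on low values only through RA_24h, so its call is a description and no support. For Phlda2 it exceeded it by 0.89 (SE 0.21), with RA_12h and noRA_12h libraries that overlapped. Over all genes tested, 6.85% changed in effect, and the 3 genes were picked with these results known.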

How the results depend on the processing

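With each library left out in turn, the members called stayed at 5, 4, 2 and 4 in noRA_12h minus ESC_0h, noRA_24h minus ESC_0h, RA_12h minus noRA_12h and RA_24h minus noRA_24h, ran from 2 to 4 for the change of the RA effect and from 1 to 3 in the knockout. The count over all genes ran from 5067 to 6793, 6270 to 7936, 1776 to 3093, 3832 to 7531, 655 to 1620 and 314 to 3156 in the same order. The largest counts for RA at 24 h, 7531, and for the change of the RA effect, 1620, came without RA_24h replicate 2, and that for the knockout, 3156, without KO_RA24h replicate 3 (4915, 955 and 1284 with all libraries). Differences that were not called changed sign for Igf2 in noRA_12h minus ESC_0h (-0.15 to 0.035), noRA_24h minus ESC_0h (-0.12 to 0.022) and RA_12h minus noRA_12h (-0.12 to 0.061), and for Igf2r with RA at 24 h (-0.087 to 0.031). Among the single member values under all alternatives, 741 kept direction and side of the threshold, 8 lost a call, 4 gained one and 8 uncalled ones changed sign. With median-of-ratios scaling 524 genes were higher and 558 lower in the knockout, against 429 and 855. A mean of at least 5 TPM left Igf2 untested in both sets and Ascl2 in the Cyp26a1 set. The replicate block left the member counts at 5, 4, 2, 4, 3 and 2, and over all genes gave 396 higher and 766 lower in the knockout; it changed no member call. In the time course as a whole the numbers did not pair the samples. Over 30 same-number pairs the median r was 0.0001 (-0.84 to 0.42), against 0.008 for pairs of other numbers. Single comparisons differed, with r of -0.53, 0.01 and -0.24 for noRA_12h and ESC_0h, and 0.04, 0.13 and 0.28 for noRA_24h and ESC_0h. The causes of these shifts were not tested. Depth limits Igf2 and Kcnq1ot1 most.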
